A study of Mus musculus with 12 samples.

Results

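Heat shock chaperones were examined in the transcriptome of sorted mouse microglia through 10 genes of the cytosolic and mitochondrial folding machinery, namely Hspa1a, Hspa1b, Hspa8, Hsph1, Dnajb1, Hsp90aa1, Hspb1, Hspd1, Hspe1 and Bag3. The members were taken by gene symbol, and they are 10 of the 55401 genes in the count files. They were chosen by their levels in these same libraries, with earlier results known, so their differences between groups are given as a description. All 10 had enough counts to stay among the 16451 genes tested.

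Chaperones of the HSP70 family bind exposed hydrophobic stretches of other proteins and release them in a cycle of ATP hydrolysis. J-domain proteins such as Dnajb1 start that cycle, HSP110 proteins such as Hsph1 and BAG proteins such as Bag3 exchange the nucleotide, HSP90 receives partly folded clients, and small heat shock proteins such as Hspb1 hold unfolding proteins without using ATP. In the mitochondrial matrix, Hspd1 forms the folding chamber that Hspe1 closes as a lid. Heat, proteotoxic stress and ischemia activate the transcription factor HSF1, which binds repeats of a short heat shock element and drives the inducible members, above all Hspa1a and Hspa1b. The same genes, together with immediate early genes, are also known to be induced when brain tissue is digested with enzymes to free its cells.

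RNA was sequenced in 12 libraries, 3 replicates in each of 4 groups of male mice, each library pooled from the CD45int CD11b+ microglia of 3 to 4 hemispheres. WT-Sham and WT-tFCI came from CX3CR1 wt/wt:HDAC3 loxp/loxp mice, and miKO-Sham and miKO-tFCI from CX3CR1 CreER/wt:HDAC3 loxp/loxp mice. All 4 groups thus carried floxed Hdac3, and the miKO groups alone carried CreER in place of a Cx3cr1 allele, so the loss of that allele cannot be told apart from the loss of Hdac3. Tamoxifen, which activates CreER, was given at 6 to 8 weeks of age, at least a month ahead of surgery. It is not clear from the sources used here whether the WT mice received it. tFCI, transient focal cerebral ischemia, was a 60 min occlusion of the middle cerebral artery, with cells taken on day 3, and Sham mice had surgery without the occlusion. Cells were freed with an enzymatic dissociation kit, enriched on Percoll and sorted in every group. Nothing in the labels gives the time from brain to lysis. By the labels, the 4 libraries numbered 1 were sequenced as batch 1 and the 8 others as batch 2.

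The libraries held 7697864 to 9452222 counts on genes. Hdac3, the targeted gene, stood at 41.8 ± 6.02 CPM (SD, n = 3) in WT-Sham and 23.9 ± 2.64 in miKO-Sham, and at 50.2 ± 5.55 in WT-tFCI and 30.7 ± 4.70 in miKO-tFCI, without overlap between the genotypes after either surgery. CPM is the gene's count scaled to the depth of its library. The 11 microglia markers summed to 33699 to 40209 CPM in WT-Sham and 32243 to 35469 in miKO-Sham, and to 24072 to 27085 in WT-tFCI and 13149 to 23782 in miKO-tFCI, and none was at 0. In bulk RNA, fewer cells of a type and less RNA per cell cannot be told apart.

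The mean level was highest in WT-Sham for every member but Hspd1, although for Hspe1 the lead over the tFCI groups was smaller than the spread between replicates. After tFCI, Hspa1b was 20.2-fold and Hspa1a 11.8-fold below WT-Sham in WT-tFCI, and Hsph1, Dnajb1, Hspb1, Hspa8, Bag3 and Hsp90aa1 were lower by smaller factors. Of these 8 genes, 7 were also lower in miKO-Sham than in WT-Sham, led by Hspb1 at 10.8-fold. Of all tested genes, 11.7% were called lower in the first comparison and 6.8% in the second, and both use the same WT-Sham libraries. Between the tFCI groups, Dnajb1 was lower and Hspd1 higher in miKO-tFCI, and the other 8 members were not called. The matrix chaperonin pair Hspd1 and Hspe1 was not called in WT-tFCI vs. WT-Sham.

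**Figure D1:**
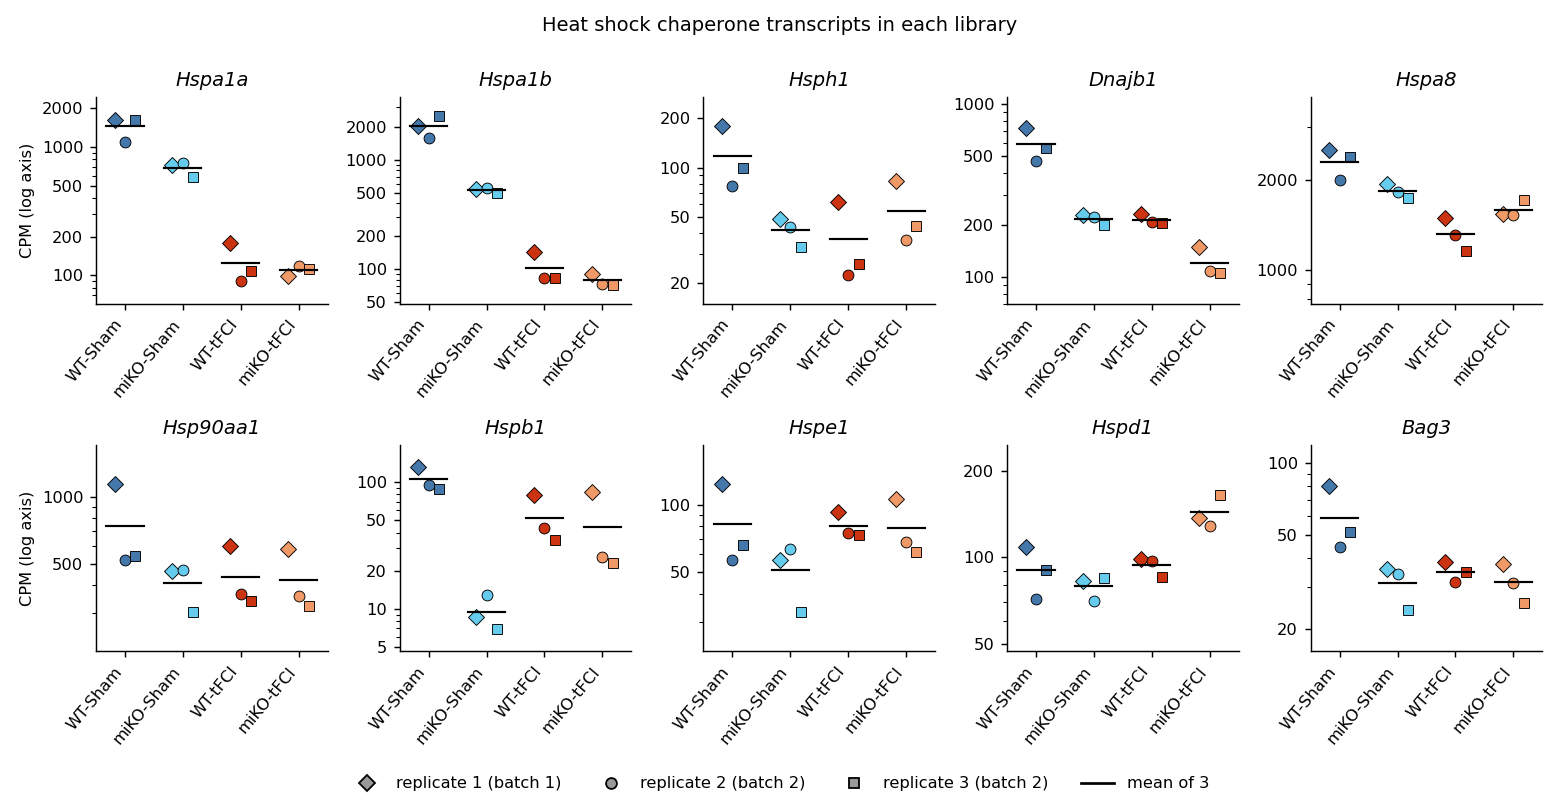
Level of each of the 10 chaperone genes in every library, in CPM on a log axis, with the 4 groups side by side, the replicates as separate symbols and the group mean as a line. Hspa1a and Hspa1b stepped down from WT-Sham to miKO-Sham to the tFCI groups, Hspb1 was lowest in miKO-Sham, and Hspd1 was highest in miKO-tFCI.

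Hspa1a (ENSMUSG00000091971.3, chr17:34969190-34972156, minus strand, GRCm38) and Hspa1b (ENSMUSG00000090877.3, chr17:34956436-34959238, minus strand) encode the stress-inducible cytosolic HSP70 and lie in tandem, each with 1 annotated transcript. Their coding sequences, of 1926 and 1929 bases, differed at 8 aligned bases, an identity of 99.4%. A read of 150 bases that starts in Hspa1a would be found letter for letter in Hspa1b from 1074 of 2818 start positions (38.1%), and 1074 of 2654 positions of Hspa1b (40.5%) match Hspa1a. By its own letters a read from these stretches cannot be placed at a single copy. Sequencing was paired-end, so its mate may place it, and the shares above are for single reads and not for pairs. Each copy's level is thus uncertain, and the sum of the counts on both is given beside them. The sum rests on the reads that were counted, since a read matching both places equally well is left out by a counter that keeps unique alignments.

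The promoters of both copies are printed because these genes moved together, here as the 250 bases before each RefSeq transcription start, with the match to a paired heat shock unit, GAANNTTC, in capitals. The first run is chr17:34972157-34972406 and the second chr17:34959239-34959488, both read from the minus strand of GRCm38.p6.
Hspa1a: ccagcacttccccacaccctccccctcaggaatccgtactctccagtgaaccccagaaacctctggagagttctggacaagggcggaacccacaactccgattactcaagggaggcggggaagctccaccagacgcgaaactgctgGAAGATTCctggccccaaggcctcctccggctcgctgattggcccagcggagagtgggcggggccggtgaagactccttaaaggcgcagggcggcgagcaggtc
Hspa1b: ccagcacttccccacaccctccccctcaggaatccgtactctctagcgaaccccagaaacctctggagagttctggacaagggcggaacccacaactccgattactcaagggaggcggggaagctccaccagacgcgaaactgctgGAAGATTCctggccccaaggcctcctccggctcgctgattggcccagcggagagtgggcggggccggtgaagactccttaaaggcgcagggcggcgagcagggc
Over the 300 bases that run from 250 before to 50 after the start, the copies differed at 4 positions, C44T, T47C, T249G and C276T, counted from 1 at the 5′ end of the window with the Hspa1a base first. The heat shock unit is the same in both copies and lies 104 to 97 bases before the start.

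Hspa1a measured 1631, 1102 and 1630 CPM in WT-Sham replicates 1 to 3, and 728, 749 and 586 in miKO-Sham. The values were 178, 90.1 and 108 CPM in WT-tFCI, and 98.9, 119 and 111 in miKO-tFCI. The 2 sham groups did not overlap with each other or with either tFCI group, whereas WT-tFCI and miKO-tFCI overlapped. The log2 fold change of Hspa1a was -3.56 ± 0.23 (SE) in WT-tFCI vs. WT-Sham, -1.08 ± 0.21 in miKO-Sham vs. WT-Sham and -2.64 ± 0.22 in miKO-tFCI vs. miKO-Sham.

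Hspa1b measured 2032, 1562 and 2476 CPM in WT-Sham, and 536, 548 and 491 in miKO-Sham. It measured 144, 82.3 and 82.7 CPM in WT-tFCI, and 91.1, 73.0 and 72.2 in miKO-tFCI. The order of the groups was that of Hspa1a, with the tFCI groups again overlapping. The log2 fold change of Hspa1b was -4.34 ± 0.22 in WT-tFCI vs. WT-Sham, -1.95 ± 0.20 in miKO-Sham vs. WT-Sham and -2.75 ± 0.20 in miKO-tFCI vs. miKO-Sham.

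Summed over both copies, the level was 3478 ± 738 CPM (SD, n = 3) in WT-Sham, 1213 ± 119 in miKO-Sham, 228 ± 81.6 in WT-tFCI and 188 ± 4.22 in miKO-tFCI. The sum was thus 15.6-fold lower in WT-tFCI than in WT-Sham. Within the batches the log2 difference of the sum was -3.51 in batch 1 and -4.22 in batch 2. Between miKO-tFCI and WT-tFCI it was -0.76 in batch 1 and 0.05 in batch 2, where the pooled value was -0.24 ± 0.20, so this difference was of the size of its error and not of 1 sign.

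The copies did not keep a fixed ratio. Hspa1b gave 55.5%, 58.6% and 60.3% of the counts of both copies in WT-Sham, and 42.3% to 45.6% in miKO-Sham. Its share was 43.4% to 47.7% in WT-tFCI and 38.1% to 47.9% in miKO-tFCI. The 3 WT-Sham libraries were all above the 9 others. Because part of the reads may not have been placed, the share describes those that were counted and not the transcripts.

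**Figure D2:**
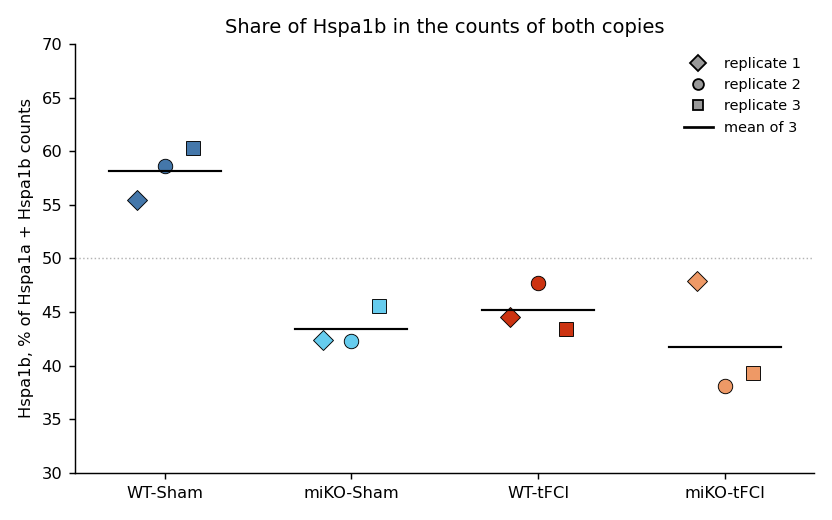
Share of Hspa1b in the counts of Hspa1a and Hspa1b together, in percent, per library, with the replicates as symbols and the mean of 3 as a line. The vertical axis runs from 30 to 70%, and the WT-Sham libraries lie at 55.5 to 60.3%, above the 38.1 to 47.9% of all other libraries.

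For the counting, the strand setting is not given in the sources used here. A predicted gene on the other strand, Gm20481 (chr17:34969912-34972136), shares 564 exonic bases with Hspa1a and lies wholly within its 1 annotated exon. Its level was 803 ± 170 CPM (SD, n = 3) in WT-Sham, 373 ± 53.6 in miKO-Sham, 74.5 ± 28.3 in WT-tFCI and 60.8 ± 6.24 in miKO-tFCI. Gm20481 followed Hspa1a across the groups. It held 476 to 9074 counts per library, although reads that fell on more than 1 gene were set apart as ambiguous. Without strand its reads and those of Hspa1a cannot be told apart. Whether the counts on Gm20481 are reads of Hspa1a was not tested.

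Hspa8 (chr9:40800984-40810087, plus strand), the constitutive HSP70 that housekeeping folding relies on, was the member with the most counts after tFCI. It measured 2510, 1991 and 2383 CPM in WT-Sham and 1927, 1817 and 1742 in miKO-Sham. It measured 1493, 1308 and 1156 CPM in WT-tFCI, and 1531, 1527 and 1709 in miKO-tFCI. All 4 groups were separate, from WT-Sham at the top through miKO-Sham and miKO-tFCI to WT-tFCI. Hspa8 had a log2 fold change of -0.80 ± 0.14 in WT-tFCI vs. WT-Sham, -0.33 ± 0.14 in miKO-Sham vs. WT-Sham and 0.28 ± 0.14 in miKO-tFCI vs. WT-tFCI. The first of these amounts to a level 1.74-fold lower, beside 20.2-fold for Hspa1b.

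Hsph1 (chr5:149614287-149636376, minus strand), the HSP110 that serves as a nucleotide exchange factor for HSP70, measured 179, 76.9 and 99.5 CPM in WT-Sham and 48.6, 43.7 and 33.0 in miKO-Sham. It measured 62.2, 22.3 and 26.1 CPM in WT-tFCI and 82.6, 36.2 and 44.1 in miKO-tFCI. WT-Sham stood above miKO-Sham and WT-tFCI without overlap, and the other 3 groups overlapped with one another. Replicate 1 of miKO-tFCI reached into the range of WT-Sham. The log2 fold change of Hsph1 was -1.73 ± 0.20 in WT-tFCI vs. WT-Sham, while miKO-Sham vs. WT-Sham gave -1.41 ± 0.20 and miKO-tFCI vs. WT-tFCI gave 0.61 ± 0.20. In the last comparison miKO-tFCI was higher in both batches, by 0.41 in batch 1 and 0.73 in batch 2 on the log2 scale. The RefSeq promoter windows of Hsph1 hold both a single pair and a run of 3 alternating heat shock units, shown in capitals with 4 bases to each side from the minus strand at chr5:149636358-149636373 and chr5:149636284-149636304.
Hsph1, pair: atctTTCTCGAAggct
Hsph1, run of 3 units: cagaTTCTGGAAAGTTCtcct
The second run is a complete match to 3 units, a match that 198 of 32851 promoter windows (0.603%) hold. It lies within the first transcribed bases, 16 to 28 or 37 to 49 bases after the start, depending on the RefSeq start used. The pair lies before either start, and both stretches overlap an annotated exon of Hsph1.

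Dnajb1 (chr8:83608193-83612653, plus strand), the J-domain protein that delivers substrates to HSP70, was lower in each of the 4 comparisons between groups. It measured 735, 468 and 559 CPM in WT-Sham, 228, 223 and 200 in miKO-Sham, 232, 207 and 205 in WT-tFCI, and 149, 109 and 105 in miKO-tFCI. WT-Sham was the highest group and miKO-tFCI the lowest, each apart from the others, and miKO-Sham and WT-tFCI lay at the same level. By the fit, the log2 difference of Dnajb1 was -1.43 ± 0.14 in WT-tFCI vs. WT-Sham, -1.42 ± 0.14 in miKO-Sham vs. WT-Sham, -0.85 ± 0.14 in miKO-tFCI vs. WT-tFCI and -0.86 ± 0.14 in miKO-tFCI vs. miKO-Sham. Dnajb1 was the member that was called lower in all 4 comparisons between groups, and each call held in every alternative tried.

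Hsp90aa1 (chr12:110690605-110702728, minus strand), the stress-inducible cytosolic HSP90, measured 1146, 522 and 544 CPM in WT-Sham and 464, 467 and 303 in miKO-Sham. It measured 599, 367 and 342 CPM in WT-tFCI, and 582, 359 and 324 in miKO-tFCI. Replicate 1 was the highest library in WT-Sham and in both tFCI groups, and WT-Sham and WT-tFCI overlapped. For Hsp90aa1 the log2 fold change was -0.72 ± 0.18 in WT-tFCI vs. WT-Sham, while miKO-Sham vs. WT-Sham gave -0.74 ± 0.18 and the tFCI groups differed by -0.05 ± 0.18. The first was -0.57 without WT-Sham replicate 1, and the second -0.55 without miKO-Sham replicate 1 and -0.48 with batch 2 alone, all inside the fold limit of 0.58. Without the batch term neither was called, at -0.76 and -0.84.

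Hspb1 (chr5:135887919-135889563, plus strand), the small heat shock protein known as HSP25 in the mouse, had a pattern of its own. It measured 132, 95.2 and 88.1 CPM in WT-Sham, but 8.61, 12.9 and 6.92 in miKO-Sham. It measured 79.7, 43.2 and 34.7 CPM in WT-tFCI and 83.4, 25.5 and 22.9 in miKO-tFCI. Every miKO-Sham library lay below all other libraries, and the 2 tFCI groups overlapped. On the log2 scale Hspb1 differed by -3.43 ± 0.32 in miKO-Sham vs. WT-Sham and -1.07 ± 0.28 in WT-tFCI vs. WT-Sham. In miKO-tFCI vs. miKO-Sham it was 2.00 ± 0.32, with 3.26 in batch 1 and 1.28 in batch 2. Leaving out a miKO-Sham library moved the first value between -3.93 and -3.03. The 250 bases before the Hspb1 start, chr5:135887669-135887918 on the plus strand of GRCm38.p6, hold a pair of matches to the unit of Hspa1a, 117 to 110 and 97 to 90 bases before the start, and are printed for comparison with that of Hspa1a.
Hspb1: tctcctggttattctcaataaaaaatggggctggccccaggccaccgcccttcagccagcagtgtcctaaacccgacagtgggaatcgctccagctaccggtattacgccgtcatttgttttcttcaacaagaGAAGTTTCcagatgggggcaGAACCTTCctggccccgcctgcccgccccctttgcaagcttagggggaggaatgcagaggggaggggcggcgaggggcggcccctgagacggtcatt

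Hspd1 (chr1:55077835-55088243, minus strand) and Hspe1 (chr1:55088132-55091307, plus strand) encode the mitochondrial chaperonin and its lid and are transcribed away from each other from a shared start region, with 112 exonic bases annotated on both strands. Hspd1 measured 109, 71.8 and 90.4 CPM in WT-Sham, 82.5, 70.6 and 85.0 in miKO-Sham, 98.6, 97.1 and 85.7 in WT-tFCI, and 137, 129 and 165 in miKO-tFCI. The miKO-tFCI libraries were above all others, and WT-Sham overlapped with miKO-Sham and with WT-tFCI, which did not overlap with each other. The log2 fold change of Hspd1 was 0.62 ± 0.15 in miKO-tFCI vs. WT-tFCI and 0.86 ± 0.15 in miKO-tFCI vs. miKO-Sham, and 0.06 ± 0.15 in WT-tFCI vs. WT-Sham. The call between the tFCI groups ended without WT-tFCI replicate 1, 2 or 3 or miKO-tFCI replicate 3, with log2 values from 0.47 to 0.67.

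Hspe1 measured 124, 56.9 and 66.4 CPM in WT-Sham, 56.5, 63.5 and 33.3 in miKO-Sham, 93.0, 74.6 and 73.6 in WT-tFCI, and 106, 68.4 and 61.4 in miKO-tFCI. Its groups overlapped in each of the 4 comparisons. By the fit, the log2 difference of Hspe1 was 0.03 ± 0.21 in WT-tFCI vs. WT-Sham, with -0.41 in batch 1 and 0.26 in batch 2, and 0.58 ± 0.21 in miKO-tFCI vs. miKO-Sham. The last sat on the fold limit and was not called under 16 of 21 alternatives. In miKO-Sham vs. WT-Sham, Hspe1 was at -0.62 ± 0.21 and not called, although 7 alternatives called it lower. Processed pseudogenes named for Hspe1 and Hspd1, 6 and 5 of them, held 59 and 299 counts over all libraries, so few reads were counted on them. The shared start region carries the longest match to heat shock units among the 8 members with a promoter window, at chr1:55088055-55088080 on the plus strand, inside the window of Hspe1 and within an exon of Hspd1.
Hspe1, shared with Hspd1: tccgTTCTAGAACCTTCCGGAAggcc

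Bag3 (chr7:128523616-128546981, plus strand), a BAG protein that links HSP70 to small heat shock proteins and selective autophagy, measured 79.8, 44.5 and 51.5 CPM in WT-Sham and 35.7, 34.1 and 24.2 in miKO-Sham. It measured 38.4, 31.5 and 34.7 CPM in WT-tFCI and 37.5, 31.3 and 25.8 in miKO-tFCI. WT-Sham was above each other group, and those 3 overlapped. For Bag3 the log2 fold change was -0.72 ± 0.16 in WT-tFCI vs. WT-Sham, where batch 2 alone gave -0.53, and -0.88 ± 0.16 in miKO-Sham vs. WT-Sham.

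Over the 11 RefSeq promoter windows of 8 members (250 bases before to 50 after a start, with no window for Hspa8 and Hsp90aa1), both strands were searched for GAANNTTC, for TTCNNGAA and for 3 alternating units, GAANNTTCNNGAA or TTCNNGAANNTTC, whose matches contain those of the pairs. GAANNTTC was in 8 of the 11 windows and in 2582 of all 32851 windows (7.86%). Either pair was in windows of 7 members and in 4946 windows (15.1%) of the whole set, and the 3-unit run in windows of Hsph1, Hspe1 and Hspd1. In Bag3 the match lies 43 to 50 bases after the start, and the windows of Dnajb1 hold none of these letters. A match is a description of the letters and not of binding.

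Per kilobase of exon, with all annotated exons of a gene merged, the inducible copies moved down the order after tFCI. The merged length can exceed that of the transcripts present, so different genes compare only roughly on this scale. For Hspa1a and Hspa1b it covers only the reads that were counted. In WT-Sham, Hspa1b led with a mean of 722 CPM per kb, ahead of Hspa8 at 533.5 and Hspa1a at 490. In WT-tFCI, Hspa8 led with 307 CPM per kb, ahead of Hsp90aa1 at 111 and Dnajb1 at 67.0, while Hspa1a was at 42.3 and Hspa1b at 36.7. In miKO mice Hspa8 led after either surgery, with 425 CPM per kb in miKO-Sham and 369.5 in miKO-tFCI. Hspa1a and Hspa1b came next in miKO-Sham, at 232 and 187 CPM per kb, and were at 37.0 and 28.1 in miKO-tFCI. Hsph1 was the lowest per kb in each group, from 5.07 to 16.3, with 7266 bases of merged exons beside 2562 for Bag3. By mean CPM Hsph1 was above Bag3 in each group, at 118 and 58.6 in WT-Sham.

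Summed over all 10 members, the level was 7552 ± 1394 CPM (SD, n = 3) in WT-Sham, 3883 ± 330 in miKO-Sham, 2496 ± 460 in WT-tFCI and 2672 ± 213 in miKO-tFCI. Hspa1a and Hspa1b made up 42.2% to 51.4% of that sum in WT-Sham and 30.7% to 32.2% in miKO-Sham. They made up 7.43% to 10.7% in WT-tFCI and 6.55% to 7.74% in miKO-tFCI.

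The comparison WT-tFCI vs. WT-Sham asked how microglia with intact Hdac3 differ on day 3 after ischemia. Calls needed an edgeR p, adjusted by Benjamini-Hochberg, under 0.05 together with a log2 change of more than 0.58 in size. Of the 10 members, 8 were called lower and 0 higher, beside 11.7% of all tested genes called lower, 20.9% higher and 32.6% in either direction. Their median log2 fold change was -0.94, and that of all genes 0.02. In 7 members every WT-tFCI library was below every WT-Sham library, as in 22.9% of all genes, and in 0 members the reverse held, as it did in 26.9% of all genes. Hsp90aa1, Hspe1 and Hspd1 overlapped.

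miKO-Sham vs. WT-Sham asked how the genotypes differ without ischemia. Here 7 members were called lower and 0 higher, beside 6.8% of all genes lower, 8.58% higher and 15.4% in either direction. The members not called were Hspa8, Hspe1 and Hspd1, and their values too were below 0. The median over the members was -0.98 against 0.04 over all genes, and 8 members were lower without overlap, as 16.2% of all genes were, and 0 were higher, as 17% were. WT-Sham is the reference of both comparisons, so the same 3 libraries enter both.

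miKO-tFCI vs. WT-tFCI asked how the genotypes differ after ischemia. Dnajb1 was called lower and Hspd1 higher, beside 8.79% of all genes called, 4.71% lower and 4.08% higher, and the median over the members was -0.11. Hspa8 and Hspd1 were higher without overlap, as were 9.58% of all genes, and Dnajb1 was lower without overlap, as were 13.3%. Called members numbered 1 without the batch term and from 1 to 3 when a library was left out, with 1 without WT-tFCI replicate 1, 2 or 3 or without miKO-tFCI replicate 3. Hsph1 was called higher under 7 alternatives, with 0.63 under DESeq2, and Hspb1 lower without miKO-tFCI replicate 1, with -0.89.

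In miKO-tFCI vs. miKO-Sham, Hspa1a, Hspa1b and Dnajb1 were called lower and Hspb1, Hspe1 and Hspd1 higher, beside 35.8% of all genes called, 13.9% lower and 21.9% higher. Without overlap, 4 members were lower, as were 21.6% of all genes, and 2 were higher, as were 26.5%. Hsph1, Hspa8, Hsp90aa1 and Bag3 were not called, with log2 values from -0.20 to 0.28. The median over the members was -0.01.

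**Figure D3:**
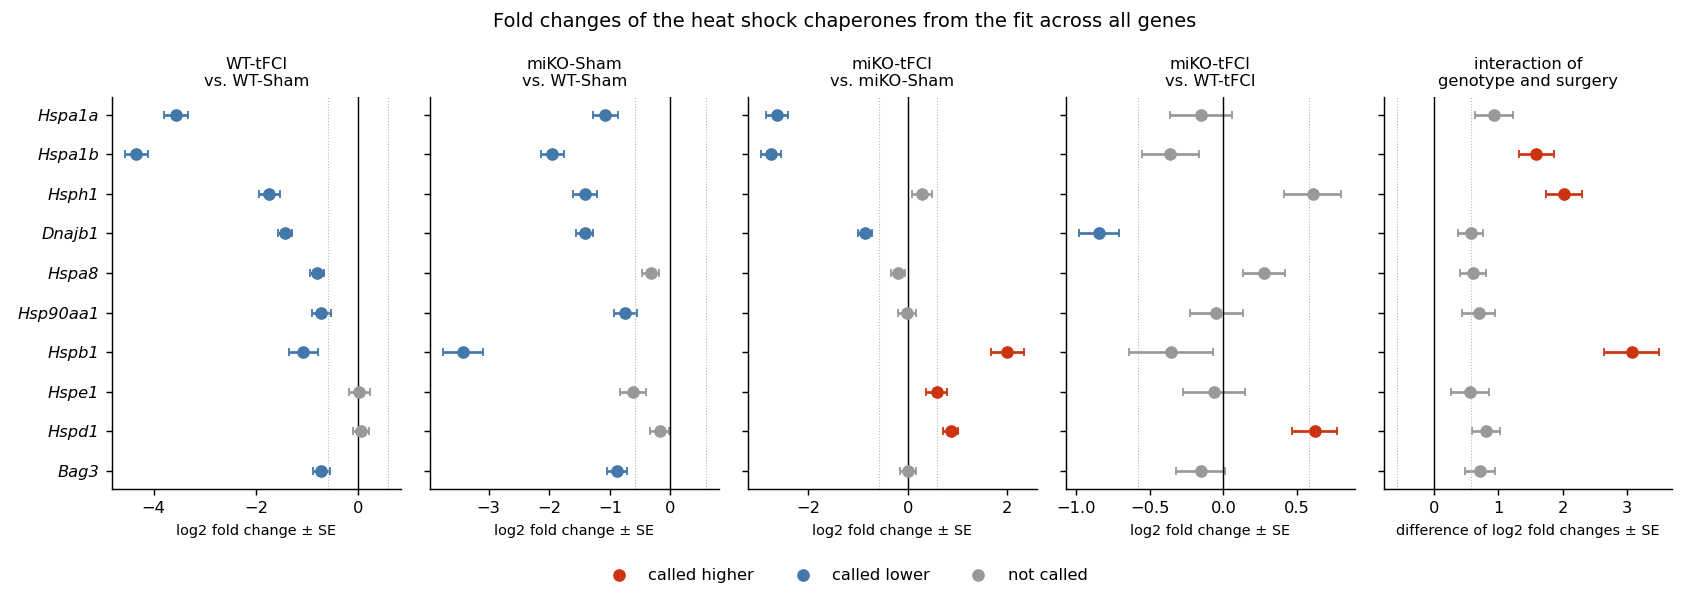
Log2 fold change of each of the 10 chaperone genes in the 4 comparisons between groups and, in the last panel, the interaction, with bars of 1 SE, coloured points for called genes, dotted lines at the fold limit of 0.58 and a scale of its own in each panel. Most members lie left of 0 in the comparisons against WT-Sham, miKO-tFCI vs. WT-tFCI has values on both sides of 0, and all 10 interactions lie right of 0.

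The interaction of genotype and surgery, the log2 difference between genotypes after tFCI minus that after sham, was called for 3 members, beside 3.82% of all genes called, 1.25% higher and 2.57% lower. It was 3.07 ± 0.43 for Hspb1, 2.02 ± 0.28 for Hsph1 and 1.59 ± 0.27 for Hspa1b. For the other members it ran from 0.56 for Hspe1 to 0.92 ± 0.29 for Hspa1a, all above 0, with a median of 0.76 over the 10. The value uses WT-Sham again, the group with the highest levels. DESeq2 called 7 members and the fit without a filter on low counts 6, and leaving out a library gave 3 to 5, with 5 without miKO-Sham replicate 2 or miKO-tFCI replicate 1.

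Sequencing batch moved with several members. In replicate 1, of batch 1, Hsph1 was above the mean of replicates 2 and 3 by 1.03, 0.35, 1.37 and 1.05 on the log2 scale in the order WT-Sham, miKO-Sham and the tFCI groups of WT and miKO mice. Hsp90aa1 was above it by 1.10, 0.30, 0.76 and 0.77, and Hspe1 by 1.01, 0.30, 0.33 and 0.71. Hspb1 was above it by 1.79 in miKO-tFCI and 1.04 in WT-tFCI. Hspa1a and Hspa1b were above it by 0.86 and 0.80 in WT-tFCI and lay within 0.33 of it in the other groups. Hspd1 stayed within 0.44 and Hspa8 within 0.28. Across all genes, miKO-Sham replicates 1 and 2 were the closest pair of replicates, with a chi-square of 2.88 per degree of freedom where the other pairs had 3.87 to 86.4. They differed by more than sampling noise and were kept apart, but this does not show that they are separate pools. The labels put them in different batches. Mitochondrial genes held 1.87% and 1.98% of their gene counts, and 0.559% in miKO-Sham replicate 3. Neither the batch label nor the independence of these replicates was tested, and each SE that involves miKO-Sham rests on both.

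**Figure D4:**
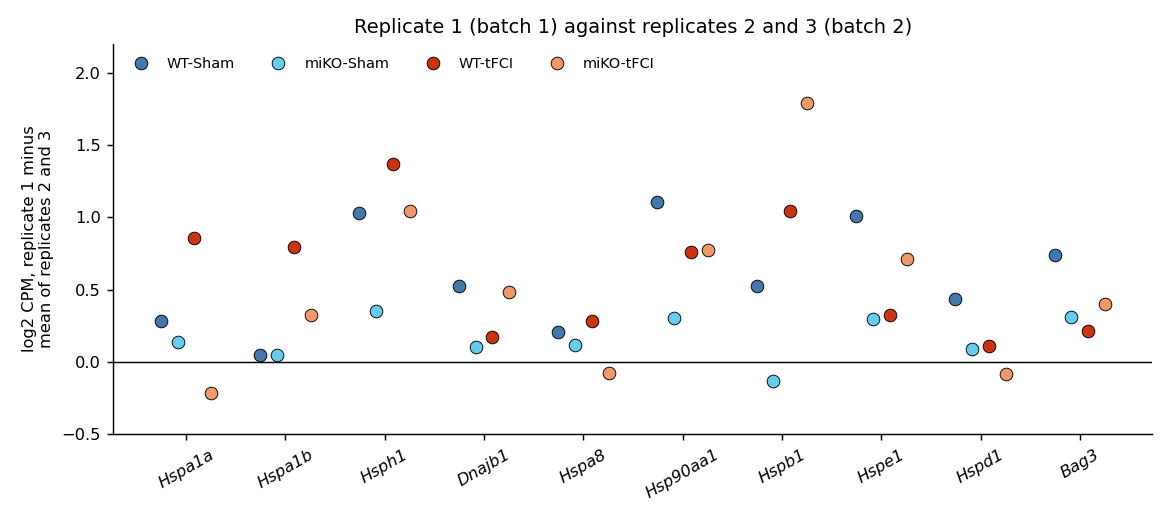
Log2 CPM of replicate 1 (batch 1) minus the mean of replicates 2 and 3 (batch 2) for each of the 10 chaperone genes, with a point for each group. Hsph1 and Hsp90aa1 lie above 0 in all 4 groups, Hspb1 ranges from -0.13 in miKO-Sham to 1.79 in miKO-tFCI, and Hspa8 stays within 0.28 of 0.

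Genes known to be induced by enzymatic cell isolation moved with the groups as well. The summed level of 23 such genes, among which Ccl4, Fos and Ccl3 had the highest levels per kb, was 47403 to 50477 CPM in WT-Sham, 35763 to 36119 in miKO-Sham, 26320 to 31103 in WT-tFCI and 13356 to 18410 in miKO-tFCI. None was at 0 in any group. In WT-tFCI vs. WT-Sham 11 of the 23 were lower and 5 higher, with a median of -0.52, and in miKO-Sham vs. WT-Sham 10 were lower and 3 higher, with a median of -0.42. Of all genes, 11.7% were called lower and 20.9% higher in the former, and 6.8% lower and 8.58% higher in the latter. Of the 3 named, Fos was lower in both comparisons, at -1.44 and -0.64 on the log2 scale. Ccl4 was higher in them, at 1.76 and 0.88, and so was Ccl3, at 1.40 and 0.98. By summed level of the 23, the order of the groups was that of Hspa1a and Hspa1b. Between the tFCI groups, where the sum of Hspa1a and Hspa1b overlapped, 17 of the 23 were lower in miKO-tFCI and 0 higher, with a median of -0.81. Of all genes, 4.71% were called lower between these groups and 4.08% higher. The part of cell isolation in the chaperone differences was not tested.

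Markers of other cells moved with surgery too. The 10 monocyte and macrophage markers summed to 14.4 to 95.1 CPM in WT-Sham, 61.5 to 120 in miKO-Sham, 381 to 702 in WT-tFCI and 554 to 1185 in miKO-tFCI. The 7 endothelial markers summed to 16.0 to 23.7, 11.3 to 16.9, 60.9 to 188 and 112 to 328 CPM in the same order. In WT-tFCI vs. WT-Sham 5 of the 10 and 6 of the 7 were called higher, beside 20.9% of all genes. None of these 17 marker genes was at 0 in any group. In miKO-Sham vs. WT-Sham, where Hspb1 differed most, 1 of the 10 monocyte and macrophage markers was higher, and of the endothelial markers 2 were higher and 1 lower. Of all genes, 8.58% were called higher there and 6.8% lower. The 8 neutrophil markers summed to 632 to 1332 CPM in WT-Sham, 1048 to 1112 in miKO-Sham, 487 to 570 in WT-tFCI and 871 to 1164 in miKO-tFCI. The 7 astrocyte markers lay between 112 and 608 CPM over all libraries and the 8 neuron markers between 1.95 and 16.1, 2 of which were at 0 in miKO-Sham. Markers of border-associated macrophages summed to 74.9 to 816 CPM over all libraries, those of oligodendrocytes to 150 to 286 and those of T and B cells to 153 to 514. In WT-tFCI vs. WT-Sham 5 of 7 astrocyte markers were higher and 1 lower, and 4 of 6 tested oligodendrocyte markers were higher and 1 lower. In miKO-tFCI vs. WT-tFCI, where Dnajb1 and Hspd1 were called, the markers called higher were 4 of 10 of monocytes and macrophages, 3 of 7 of border-associated macrophages, 4 of 7 tested of neutrophils and 3 of 7 of astrocytes, with 1 astrocyte marker lower. Of all genes, 4.08% were called higher between the tFCI groups and 4.71% lower. The part of these cells in the chaperone differences was not tested.

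Around the members, 120 other genes of the folding machinery and its regulation were listed in 10 lists, of which 114 had enough counts to be tested. The lists were chosen with earlier results of these data known, so the adjusted p-values given for their genes are a description. In WT-tFCI vs. WT-Sham 24 were higher and 15 lower (34.2% called), with a median of 0.13. Thus the wider machinery was called about as often as all genes, 32.6%, and on both sides of 0. In miKO-tFCI vs. WT-tFCI 4 and 4 (7.02%), and in miKO-tFCI vs. miKO-Sham 23 and 9 (28.1%).

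Among the genes nearest in role to Dnajb1, more were lower than higher after tFCI in WT mice. Of 16 other cytosolic and nuclear J-domain genes 4 were lower and 1 higher, beside 11.7% and 20.9% of all tested genes. Dnaja1, an HSP70 co-chaperone, was lower at -1.07 ± 0.14 on the log2 scale (edgeR, Benjamini-Hochberg adjusted p = 5.1e-05), and Dnajb4 at -0.97 ± 0.15 (edgeR adjusted p = 0.00013). Dnajc9, a J-domain protein that chaperones histones, was higher at 1.92 ± 0.14 (edgeR adjusted p = 1.8e-07). Of 8 other HSP70 and HSP110 genes, 2 were higher and 1 lower. Hspa4l, an HSP110, was higher at 1.12 ± 0.32 (edgeR adjusted p = 0.013), and so was Hspa12b, for which no fold is given because WT-Sham held at most 0.12 CPM. Hspa1l, which starts head to head beside Hspa1a, was lower at -2.78 ± 0.49 (edgeR adjusted p = 0.00046) and low in level, at 0.96 to 17.4 CPM. Among 9 exchange factors and other HSP70 regulators Bag1 was higher at 1.32 ± 0.11 (edgeR adjusted p = 6.4e-07), the opposite direction to Bag3, and Bag5 and Hspbap1 were lower.

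Of 17 other genes of HSP90 and its helpers, 1 was higher and 1 lower. Chordc1 was lower at -0.75 ± 0.23 (edgeR adjusted p = 0.017), and Fkbp5, a steroid receptor co-chaperone induced by glucocorticoids, was called higher at 0.91 ± 0.30 (edgeR adjusted p = 0.027) with overlapping groups and with -0.01 in batch 1 and 1.42 in batch 2. Hsp90ab1, the constitutive HSP90 and the highest of the list per kb, was not called, at -0.39 ± 0.15.

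In 3 other folding systems calls were higher only, in a comparison where 20.9% of all genes were called higher and 11.7% lower. Of 18 endoplasmic reticulum chaperones 8 were higher and 0 lower, among them Serpinh1, a collagen chaperone, at 4.96 ± 0.42 (edgeR adjusted p = 5.2e-07) and Dnajc10, a disulfide reductase, at 1.15 ± 0.21 (edgeR adjusted p = 0.0006). Serpinh1 ranged from 1.34 to 1.68 CPM in WT-Sham and from 22.5 to 117 in WT-tFCI, with its highest value in replicate 1. Of 14 TRiC chaperonin and prefoldin genes 4 were higher and 0 lower, led by Pfdn1 at 0.86 ± 0.18 and Cct2 at 0.76 ± 0.12 (edgeR adjusted p = 0.002 and 0.00025). Of the 4 tested small heat shock genes other than Hspb1, 3 were higher, including Cryab at 2.13 ± 0.45 and Hspb8 at 2.62 ± 0.64 (edgeR adjusted p = 0.002 and 0.0052), and the other 4 of the 8 listed had too few counts. Cryab was higher by 3.53 in batch 1 and 1.35 in batch 2, and Hspb8 by 3.69 and 1.47. All 8 listed summed to 25.7 to 33.8 CPM in WT-Sham. In WT-tFCI their sum was 34.6 to 94.7 CPM with a median of 34.8, so it stood out in 1 library. Of the mitochondrial genes, Hspa9, the matrix HSP70, was higher at 0.61 ± 0.17 (edgeR adjusted p = 0.01), and Clpx and Htra2 were lower.

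Hsf1, the factor that drives the inducible members, was itself lower in that comparison, at -0.81 ± 0.13 (edgeR adjusted p = 0.00025), and its binding partner Hsbp1 was higher at 0.66 ± 0.14 (edgeR adjusted p = 0.0017). These are RNA levels, and HSF1 is controlled mainly by its assembly and modification. Of 10 other genes known to be induced by HSF1, 4 were lower and 2 higher, beside 11.7% and 20.9% of all tested genes. Ier5 was lower at -1.29 ± 0.13 (edgeR adjusted p = 4.5e-06), and Gadd45b, a stress gene with many other inducers, was higher at 1.84 ± 0.18 (edgeR adjusted p = 1.9e-06).

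In miKO-Sham vs. WT-Sham, 6 of the 114 tested genes of these lists were lower and 5 higher, a share called of 9.65% beside 15.4% of all genes. Bag2, an exchange factor for HSP70, was lower at -2.30 ± 0.49 (edgeR adjusted p = 0.0043), with 3.36 to 5.17 CPM in WT-Sham and 0.77 to 0.97 in miKO-Sham. The muscle-type small heat shock gene Hspb3 was lower at -1.32 ± 0.20 (edgeR adjusted p = 0.00027), and again in miKO-tFCI vs. WT-tFCI at -1.38 ± 0.20 (edgeR adjusted p = 0.00072), where Hspb1 was not called. Dnajb4 was lower at -0.66 ± 0.15 and Ahsa2 at -0.71 ± 0.13, while Hspbp1 was higher at 0.76 ± 0.13 and Sdf2l1 at 1.00 ± 0.15 (edgeR adjusted p = 0.0052, 0.001, 0.00059 and 0.0003). Of the heat shock factors and their regulators none was called by edgeR.

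In miKO-tFCI vs. WT-tFCI, Hspa9, like Hspd1 a chaperone of the mitochondrial matrix, was higher at 0.72 ± 0.17 (edgeR adjusted p = 0.014). Serpinh1 was higher at 1.31 ± 0.29 with overlapping groups (edgeR adjusted p = 0.012), and Dnajb5 was lower at -0.82 ± 0.20 (edgeR adjusted p = 0.019). Of the other 13 mitochondrial chaperones and proteases tested, none was called.

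**Figure D5:**
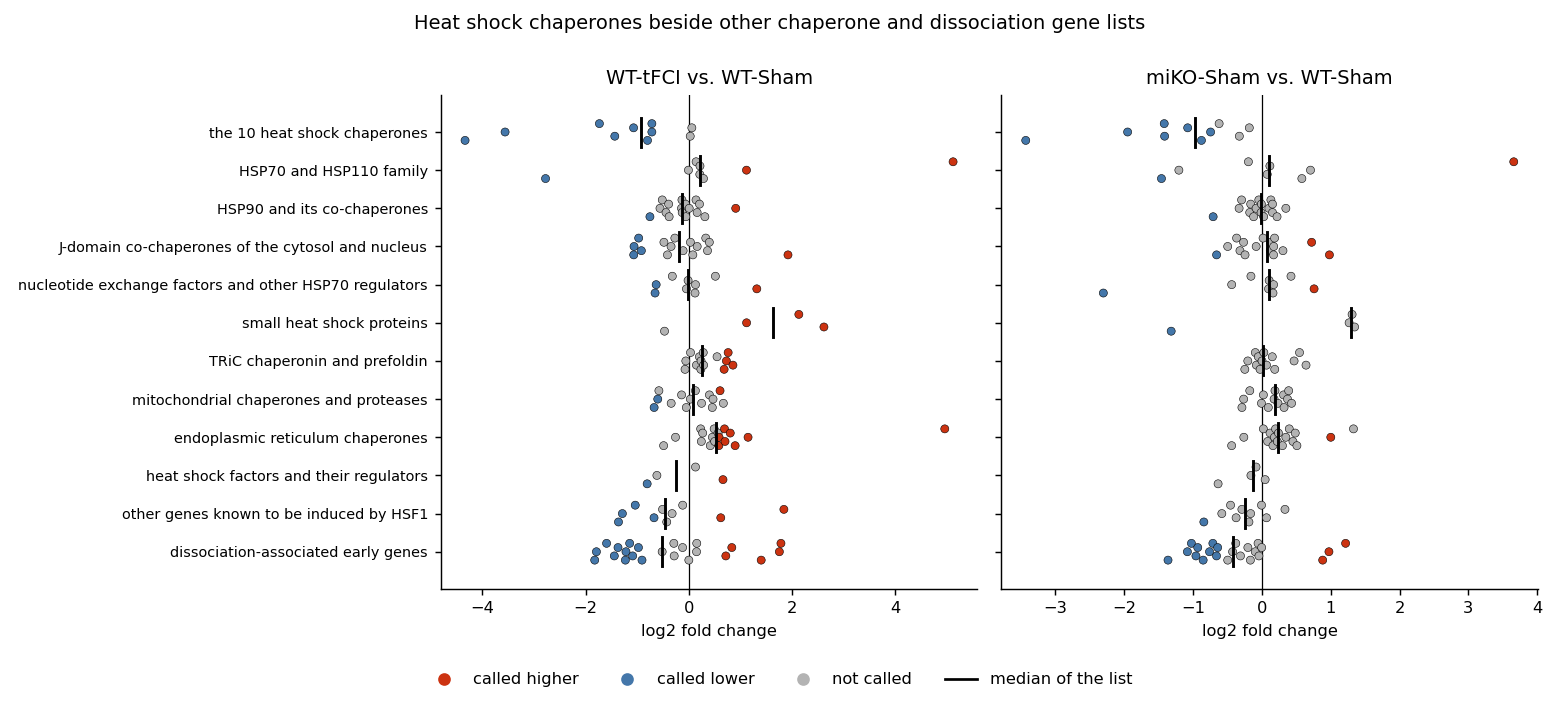
Log2 fold change of each tested gene in the 10 members, the 10 other lists of the folding machinery and the dissociation genes, for tFCI against sham in WT mice (left) and miKO against WT after sham (right), each with its own scale, with called genes in colour and the median of each list as a bar. The members have medians of -0.94 and -0.98, whereas the endoplasmic reticulum chaperones have 8 of 18 genes higher in the first panel and 1 in the other.

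By likeness over the 12 libraries, after removal of the batch difference, Gm20481 had the pattern nearest to the sum of Hspa1a and Hspa1b. It came first among 15731 genes with a mean of at least 1 CPM, with a Pearson correlation of 0.997 of log2 CPM. Gm20481 lies within the exon of Hspa1a, so this likeness is not that of a separate stretch of the genome. Among the next in order were the noncoding Peg13 at 0.984, Gm44710 at 0.981 and Zbtb38 at 0.974. Most unlike the sum were Irf7 at -0.995, Chaf1b at -0.993, Snx32 at -0.993, Bag1 at -0.990 and Isg15 at -0.989. Irf7, an interferon regulatory factor, was at 12.5 ± 1.59 CPM in WT-Sham, 29.1 ± 3.31 in miKO-Sham, 88.9 ± 23.5 in WT-tFCI and 89.6 ± 2.68 in miKO-tFCI, the reverse order. The libraries fall into 4 groups and share depth and batch, so these values describe an order of groups more than a relation within them, and by Spearman's rank 1 of the 5 most alike stayed among the first 5.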

How the data were processed

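The authors deposited raw counts per gene for each library, not normalized. The submitters' processing notes name FastQC 0.11.9, Trim Galore, HISAT2 2.2.1, SAMtools and HTSeq 1.99.2, with mm10 and GRCm38.p6 as builds. The strand setting of the counting is not given in the sources used here. Libraries were made with a SMART-Seq low-input kit. The labels name a CytoFLEX SRT and the paper a Cytek Aurora for the sort.

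Groups and batches followed the labels. Identifiers were matched to GENCODE M21 without regard to version (55141 of 55401), for symbols, exons and GRCm38 coordinates. The filter filterByExpr left 16451 genes, TMM set the library scale (0.864 to 1.11), and edgeR 4.0.16 under R 4.3.3 gave quasi-likelihood tests from a single fit of all 12 libraries, with terms for group and for batch. Calls used the Benjamini-Hochberg adjustment across these genes, with 0.05 as the limit on p and 0.58 as the limit on the size of the log2 change. The SE is the fold change over the root of F. Log2 CPM used a prior count of 2, and within-batch values are differences of log2(CPM + 0.1). DESeq2 1.42.0, other scalings and filters, other samples and terms, and leaving out each library in turn were alternatives. The fit was tested on simulated counts.

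The members and the gene lists were chosen with earlier results of these data known. Named were the members, Hdac3, from each folding list in each comparison at most the 2 called genes with the largest rise and the 2 with the largest fall above 3 counts in a library of each group, the gene of each list with the highest level per kb, and the 5 genes most and least like Hspa1a plus Hspa1b, from which the text gives a selection, and 1 gene is not reported here. Each replicate is a pool of animals, and p-values measure the spread between such pools. At this depth, counting error is small for the members and large for genes of few counts. The 18 correlations of same-numbered libraries ran from -0.06 to 0.67. All 3 were over 0.1 between the tFCI groups, and not all were in the other pairs of groups. Replicates 2 and 3 of the tFCI groups also correlated across the numbers, at 0.33 and 0.39. The data thus do not show that the numbers pair these libraries. The fit without the block is given.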

Additional observations from a re-analysis of the deposited data

Results flagged for a closer look

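The effect of tFCI differed between the genotypes, by the test of the interaction in edgeR, for 3 of the 10 chaperone genes. It also did for 5 of the 114 other listed genes tested (4.39%), about the share of all genes, 3.82%. Since Hspa1b, Hsph1 and Hspb1 belong to genes chosen with these results known, their interactions of 1.59, 2.02 and 3.07 on the log2 scale are given as a description.

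The gene lists too were chosen with earlier results known, so the adjusted p-values of their genes are a description as well. Among the listed genes, Bag2, an exchange factor for HSP70, had an interaction of 2.99 (edgeR, Benjamini-Hochberg adjusted p = 0.017). Bag2 was low in level, with 0.77 to 17.7 CPM over the libraries, and its highest value was in miKO-tFCI replicate 1. Slc5a3, an inositol transporter, had an interaction of 1.68 (edgeR adjusted p = 0.012), and Dnaja1, a J-domain partner of HSP70, one of 0.90 (edgeR adjusted p = 0.022). Dnajc9 had an interaction of -0.90 (edgeR adjusted p = 0.021) and Sdf2l1, of the endoplasmic reticulum, one of -0.98 (edgeR adjusted p = 0.019).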

How the results depend on the processing

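No value of a member changed sign with its call, and 34 of the 50 calls of a member in a comparison were the same in every alternative. In miKO-tFCI vs. WT-tFCI the genes called numbered 1446, against 2193 with no filter on low counts, 701 with no batch term, 2535 with only the groups compared in the fit and 616 to 1667 without a library. The 2 members called there became 1 with no batch term and 1 to 3 without a library, and the 8 other chaperone genes became 3 with no batch term, 13 with no limit on the fold change and 3 to 10 without a library. For the interaction, 629 genes became 1272 with no filter, 303 with no batch term and 281 to 883 without a library. The 3 members became 7 with DESeq2, 6 with no filter and 3 to 5 without a library, and the 5 other chaperone genes became 9 with no filter, 2 with no batch term, 1 with batch 2 alone and 1 to 6 without a library. Between the tFCI groups, the counts of all genes and of other chaperone genes were lowest without WT-tFCI replicate 3, at 616 and 3, and those of the interaction without WT-tFCI replicate 2 or 3, at 281 genes and 2 or 1 chaperone genes.

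In miKO-Sham vs. WT-Sham the 11 other chaperone genes became 18 with no filter, 19 with no limit on the fold change and 9 to 16 without a library. In miKO-tFCI vs. miKO-Sham, 5887 genes became 3744 with at least 10 counts in every library, and the 32 other chaperone genes became 51 with no limit on the fold change. Of the 5 genes most like Hspa1a and Hspa1b, 1 stayed with Spearman's correlation and 3 with no removal of batch. Without the batch term, Hspb1 was not called in WT-tFCI vs. WT-Sham, at -0.999 against -1.07, nor was Hsp90aa1 there or in miKO-Sham vs. WT-Sham, at -0.76 and -0.84, and Hsph1 was not called in the interaction, at 2.07. The cause was not tested.

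Same-numbered libraries of the tFCI groups correlated at 0.67, 0.33 and 0.32, and replicates 2 and 3 correlated across the numbers there as well, at 0.33 and 0.39. In the other pairs of groups at least 1 same-numbered pair was under 0.1. A fit with the replicate number as a block called 8 members and 5325 genes for tFCI against sham in WT mice, 6 members and 5871 genes for the same in miKO mice, 8 and 2490 for miKO against WT after sham, 2 and 1429 after tFCI, and 3 and 612 for the interaction. The member that the block added was Hspe1 after sham, at -0.65, and it changed no other call of a member.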
